A study of Homo sapiens with 4 samples.

Results

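Metallothioneins and the proteins that move zinc were followed through 10 genes chosen by name: the metallothioneins MT1E, MT1F, MT1X and MT2A, the zinc-sensing transcription factor MTF1, the zinc exporters SLC30A1 and SLC30A9, and the zinc importers SLC39A6, SLC39A10 and SLC39A14. All 10 were found among the 58243 gene rows of each table. The libraries hold mRNA of SH-SY5Y, an established line of human neuroblastoma cells. The control group was 2 libraries, a and b, of cells not given sodium nitroprusside (SNP), an iron nitrosyl complex and nitric oxide donor. The SNP group was 2 libraries, a and b, of cells exposed to SNP for 8 h. The labels' treatment text describes the SH-SY5Y cells as differentiated with retinoic acid and names several SNP doses without saying which was sequenced, and their extraction text calls the RNA of the SNP cells oxidized without saying whether a fraction of the RNA was separated. The labels do not say whether libraries a and b came from separate cultures, so the p-values measure only the spread between these samples, which may be technical.

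Zinc in a cell is bound, sensed and moved by a small set of proteins. Metallothioneins are short proteins rich in cysteine whose thiolates hold zinc and copper, and nitric oxide can modify those thiolates and free the metal. MTF1 binds DNA at metal response elements when free zinc rises and switches on the metallothionein genes and SLC30A1. SLC30 proteins carry zinc out of the cytosol, across the plasma membrane or into organelles, and SLC39 proteins carry it into the cytosol.

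Counts over all genes summed to between 5613144 and 8056550 per library. At these totals 3 counts corresponded to between 0.378 and 0.533 CPM (counts scaled by the library's total times its TMM factor). The library totals implied by the deposited RPKM values were far larger in all 4 libraries, and so were the read numbers on the labels. The count totals are therefore not taken as the sequencing depth. The reason for this gap, and its part in the low counts below, was not tested. An edgeR quasi-likelihood fit over the 14759 genes that passed a filter on low counts called 26.2% of them at a Benjamini-Hochberg adjusted p under 0.05, 13.6% higher and 12.6% lower in SNP, with 51.9% of the calls higher. With library totals taken from the deposited RPKM values, an alternative added after seeing the data, 63.1% of the calls were higher, and the median change over the genes tested went from -0.0042 to 0.064 on the log2 scale. Across 14724 tested genes the log2 fold change rose with the excess of guanine over cytosine in the transcript (Spearman's rho 0.480, a description over genes that share the same 4 libraries), and with offsets on composition 2925 genes were called, 1953 of them among the 3861 called without. Of the 9 adrenergic neuroblastoma markers, 8 were counted in every library and TH was at 0 in all, with a summed level of 2640 and 2710 CPM in control and of 2110 and 2220 CPM in SNP. Single markers went both ways: DBH was at 625 and 722 CPM in control and 220 and 298 CPM in SNP, HAND2 at 531 and 527 against 683 and 722, and CHGA at 53.7 and 52.6 against 109 and 90.5 CPM, values picked out after they were seen. The part of these differences in the results was not tested. Summed markers of astrocytes, microglia, endothelium and epithelium stayed between 0.178 and 2.93 CPM in each library, and AQP4, SLC1A3, AIF1, PTPRC and CDH5 were at 0 in all 4. The 6 mesenchymal markers summed to between 179 and 198 CPM. Most of that was TWIST1 (137 to 156 CPM) and FN1 (28.9 to 42.9 CPM), while PRRX1, COL1A1, COL1A2 and YAP1 were each at 4.93 CPM or less.

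The DNA before MT1X, MT2A and SLC30A1, genes that MTF1 is known to switch on, is shown with its matches to the metal response element core. The metal response element core was searched as TGCACNC and TGCGCNC on both strands in RefSeq promoters (GRCh38.p14), which cover 250 bases before and 50 after the annotated start. An entry was matched for 7 of the 10 genes. MT1E, MT1F and SLC39A14 had no entry and were not searched. MT1X, on chromosome 16, held 4 cores before its start, and the stretch that contains them is printed 5′ to 3′ with the cores in capitals:
MT1X, chr16:56682220-56682423, plus strand: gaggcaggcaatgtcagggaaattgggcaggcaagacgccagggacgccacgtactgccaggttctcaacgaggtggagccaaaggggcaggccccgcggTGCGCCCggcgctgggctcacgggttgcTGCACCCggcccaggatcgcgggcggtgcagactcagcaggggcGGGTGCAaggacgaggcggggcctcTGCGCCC
MT2A held 7 cores, of which 5 read on the gene's strand and 2 on the other; 4 of them are given with 7 bases on each side, short runs because GENCODE 29 places a transcribed untranslated part of an MT2A transcript over this window:
MT2A, chr16:56608409-56608429, plus strand: gcggcccGTGTGCAgagccgg
MT2A, chr16:56608438-56608458, plus strand: ggcccagTGCGCGCggccggg
MT2A, chr16:56608489-56608509, plus strand: gcggggcGTGTGCAggcagcg
MT2A, chr16:56608523-56608543, plus strand: gggctttTGCACTCgtcccgg
SLC30A1, on chromosome 1, held 1 core in the 250 bases before its start, on the other strand, 49 bases upstream:
SLC30A1, chr1:211579162-211579411, minus strand: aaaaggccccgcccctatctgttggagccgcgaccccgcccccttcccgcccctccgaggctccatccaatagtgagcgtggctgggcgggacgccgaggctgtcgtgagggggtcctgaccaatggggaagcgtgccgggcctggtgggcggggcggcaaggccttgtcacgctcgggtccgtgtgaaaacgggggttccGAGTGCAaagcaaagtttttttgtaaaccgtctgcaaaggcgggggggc
Cores read on the other strand appear here as their reverse complements. SLC39A6 held 1 core, 17 bases before its start, and none was found in the 250 bases before MTF1, SLC30A9 or either of the 2 RefSeq starts of SLC39A10. The gene spans of GENCODE 29 given below start elsewhere for some genes. SLC39A10 starts there at base 195575977 and SLC30A1, on the minus strand, at base 211578742. Those 2 starts lie outside the windows searched. Of all 35116 promoters in the table, 24.8% held at least 1 core in those 250 bases, 0.37% at least 4 and 0.0313% at least 7. A match is a description of these letters and says nothing of binding in these cells.

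**Figure D1:**
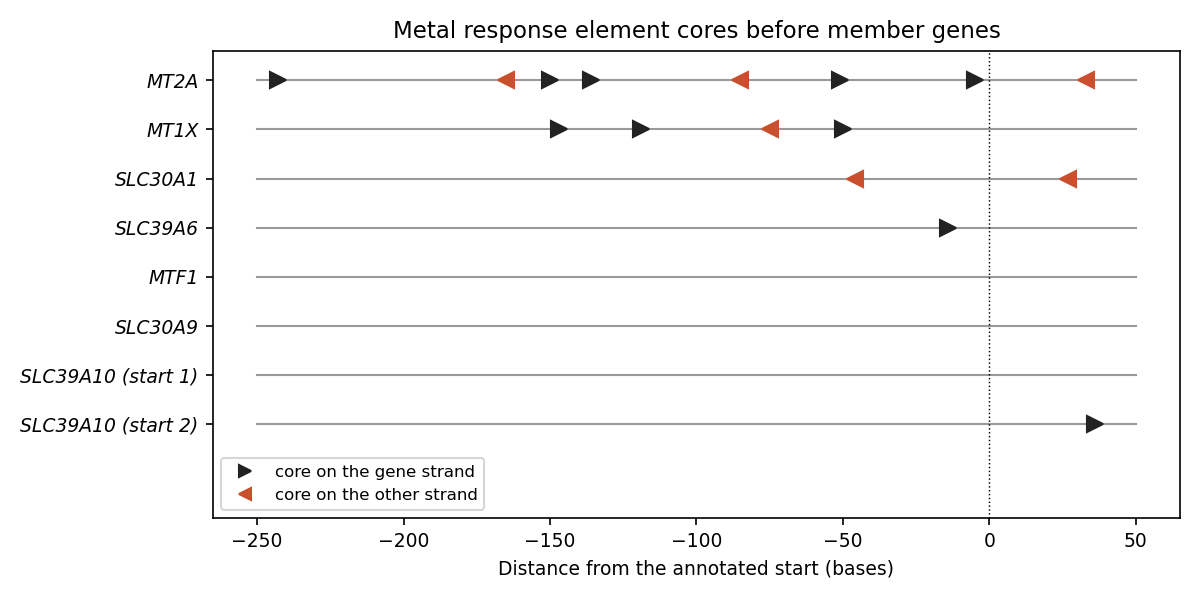
Metal response element cores around the annotated start of 7 genes, with the distance from the start in bases on the x axis and 1 line per annotated start. Black triangles are cores on the gene's strand and orange triangles cores on the other strand; MT2A has 7 cores before its start, MT1X 4, and SLC30A1 and SLC39A6 1 each.

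MTF1 (ENSG00000188786, chromosome 1, bases 37809567 to 37859620, GRCh38), the zinc sensor itself, had nearly the same level in all 4 libraries. MTF1 was counted 496 and 419 times in the controls and 563 and 550 times with SNP, or 76.5 and 74.4 CPM against 70.9 and 71.3 CPM. The SNP libraries sat just below the controls, and the log2 fold change was -0.086 (SE 0.114, 95% interval -0.324 to 0.152, edgeR adjusted p = 0.624). This change did not pass the test.

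The 4 metallothioneins were at or near 0 counts in these SH-SY5Y libraries in both conditions. MT1E (ENSG00000169715, chromosome 16, bases 56625475 to 56627112) had 0 counts in every library, which allows a level of at most 0.378 to 0.533 CPM. MT1F (ENSG00000198417, bases 56657694 to 56660698) had 1 count in the whole study, in SNP library b. MT1E could not be compared between conditions, and MT1F only through that 1 count. Both stayed below the floor of 3 counts in every library.

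MT1X (ENSG00000187193, bases 56682424 to 56684196) had 9 counts in control a, 1 in control b and 3 in each SNP library. The control libraries alone spanned the SNP values, so the groups overlapped, and the gene did not pass the count filter. In an edgeR fit without that filter, the adjusted p was 0.627 for MT1X and 0.700 for MT1F. The value for MT1F rests on 1 count and says little. MT1X also shares 321 exonic bases with AC026461.1, and 14.4% of its 75-base windows recur in transcripts of AC026461.1, MT1G or MT1XP1, so its few counts are uncertain. By the same measure, 1.43% of the windows of MT1E and 0 of those of MT1F and MT2A recur elsewhere.

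MT2A (ENSG00000125148, bases 56608199 to 56609497), usually the most abundant human metallothionein, was counted 12 and 8 times in the controls, and 3 and 7 times in the SNP libraries. These were 1.85 and 1.42 CPM against 0.378 and 0.908 CPM, and both SNP libraries lay below both controls. Group means were 1.64 ± 0.304 CPM (SD, n = 2) and 0.643 ± 0.375 CPM (SD, n = 2). The difference did not pass the test: the log2 fold change was -1.34 with a 95% interval from -2.74 to 0.057 (SE 0.672, edgeR adjusted p = 0.151). Leaving out 1 library gave between -2.07 (without SNP b) and -0.84 (without SNP a), with no call. MT2A passed the count filter only through the control libraries, and its transcript is among the lowest 2.22% of tested genes for guanine over cytosine. With offsets for transcript length, GC and that excess the log2 fold change was -0.75, with an adjusted p of 0.448.

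The wider family was as low. Of 9 further metallothionein genes, 7 had 0 counts in every library (the brain-enriched MT3 among them), MT1A had 3 counts in control a alone, and MT1G had 1 count in control a and 2 in control b. All 13 metallothionein genes together were counted 25 and 11 times in the controls, and 6 and 11 times with SNP. As shares of all counts, without TMM factors, these were 3.82 CPM (95% exact Clopper-Pearson interval 2.47 to 5.64) and 1.96 CPM (0.978 to 3.51) in control, and 0.745 CPM (0.273 to 1.62) and 1.44 CPM (0.718 to 2.57) in SNP. The intervals cover counting error only; that of SNP a lies below that of control a, and those of the other control and SNP pairs overlap. In bulk samples, fewer cells with a transcript and less of it per cell cannot be told apart.

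Genes around the metallothionein cluster on chromosome 16 were counted in every library. The 12 family members there lie within 119 kb, from base 56565049 to 56684196. The nearest protein-coding genes on the 2 sides give these values: BBS2 had 308, 272, 440 and 391 counts in control a, control b, SNP a and SNP b, and NUP93 had 570, 543, 721 and 702. The exons of MT1E, MT1F, MT1X and MT2A, merged over transcripts, cover 1052 to 1889 bases. Of the 3265 protein-coding genes of at most 1889 bases on that measure, 371 (11.4%) averaged 10 CPM or more. MT2A and MT1X each merge into 1 exon, of 1299 and 1773 bases, which fills the whole span of the gene. Introns of spliced transcripts are counted in such lengths, so single transcripts can be shorter, and the compared genes are not matched to them. How the library preparation treats short transcripts is not given in the sources used here, and its part in these low counts was not tested.

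**Figure D2:**
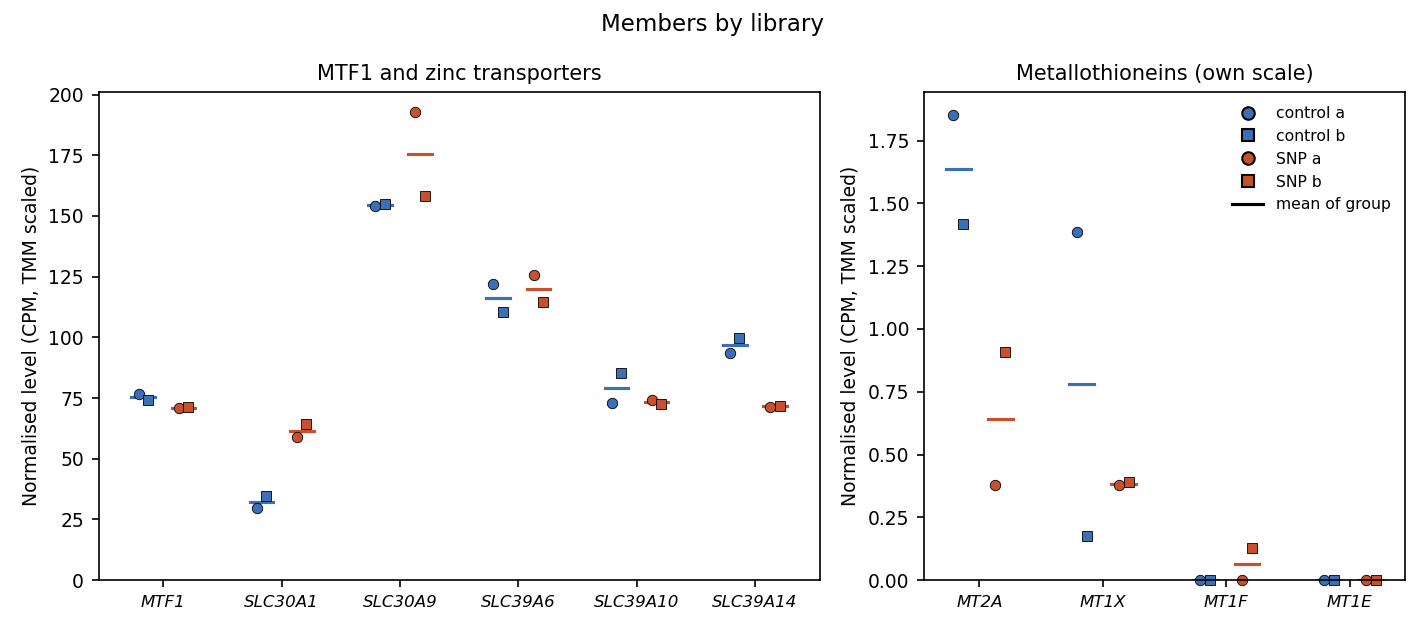
Normalised level (CPM, TMM scaled) of each of the 10 genes in the 4 libraries, with MTF1 and the transporters in the left panel and the metallothioneins on their own scale in the right; blue is control, orange SNP, circles are libraries a, squares libraries b, and lines the group means. SLC30A1 lies at 29.8 and 34.6 CPM in control and 58.8 and 64.4 CPM in SNP, SLC39A14 at 93.8 and 99.8 CPM against 71.5 and 71.8 CPM, and no metallothionein is above 1.85 CPM.

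SLC30A1 (ENSG00000170385, chromosome 1, bases 211571568 to 211578742), the zinc exporter of the plasma membrane, had the lowest adjusted p of the 10 genes. SLC30A1 was counted 193 and 195 times in the controls and 467 and 497 times with SNP. On the CPM scale that was 29.8 and 34.6 in control against 58.8 and 64.4 in SNP, so the lowest SNP library stood well above the highest control. The mean rose from 32.2 ± 3.43 CPM (SD, n = 2) to 61.6 ± 3.998 CPM (SD, n = 2), a fold of 1.92 (95% interval 1.57 to 2.34). The log2 fold change was 0.94 (SE 0.137, edgeR adjusted p = 4.25e-05), higher than that of 95.9% of all genes tested. SLC30A1 was called in all 4 fits that left out 1 library, with log2 fold changes from 0.83 to 1.05. Its transcript is richer in guanine than cytosine, above 78.8% of tested genes on that measure, and with offsets for length, GC and guanine excess the log2 fold change was 0.62, with an adjusted p of 0.00566.

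SLC30A9 (ENSG00000014824, chromosome 4, bases 41990472 to 42090457), a zinc transporter of mitochondria, did not pass the test. Its levels were 154.1 and 154.8 CPM in control and 192.9 and 158.1 CPM in SNP. Both SNP values lay above the controls, but SNP a stood far from SNP b, and the log2 fold change was 0.18 (SE 0.109, 95% interval -0.041 to 0.41, edgeR adjusted p = 0.226). The result rested on which SNP library was used: without SNP b the log2 fold change was 0.32 with an adjusted p of 0.0217, and with the composition offsets it was -0.063.

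Of the 3 zinc importers, 1 passed the test. SLC39A14 (ENSG00000104635, chromosome 8, bases 22367249 to 22434129), which carries zinc, iron and manganese into the cell, fell in SNP. Its counts were 608 in control a and 562 in control b, beside 568 and 554 in the SNP libraries, whose count totals were larger. On the CPM scale these were 93.8 and 99.8 in control against 71.5 and 71.8 in SNP. The groups did not overlap, and the 2 SNP libraries were almost identical. The mean went from 96.8 ± 4.25 CPM (SD, n = 2) to 71.7 ± 0.233 CPM (SD, n = 2), a log2 fold change of -0.43 (SE 0.112, 95% interval -0.665 to -0.200, edgeR adjusted p = 0.00665). This call was lost without control b, at a log2 fold change of -0.39 with an adjusted p of 0.108, and with the RPKM-derived totals, at -0.36 with an adjusted p of 0.0789.

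SLC39A6 and SLC39A10 are related plasma membrane importers that are known to assemble with each other. SLC39A6 (ENSG00000141424, chromosome 18, bases 36108532 to 36129385) had 121.8 and 110.4 CPM in control and 125.5 and 114.7 CPM in SNP. The groups overlapped, and the log2 fold change was 0.048 (95% interval -0.177 to 0.273, edgeR adjusted p = 0.787). SLC39A10 (ENSG00000196950, chromosome 2, bases 195575977 to 195737702) had 73.1 and 85.2 CPM in control and 74.0 and 72.6 CPM in SNP. Control a lay between the SNP values, and the log2 fold change was -0.11 (95% interval -0.354 to 0.137, edgeR adjusted p = 0.538). With composition offsets and the replicate letter as a block, SLC39A10 reached -0.29 with an adjusted p of 0.0491.

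Across the 10 genes, 7 passed the filter on low counts, 1 was called higher (SLC30A1) and 1 lower (SLC39A14). That is 28.6% of those tested, beside 26.2% of all genes tested, so the share called was near the background. The 7 had a median log2 fold change of -0.086, beside -0.0042 over all genes tested. In 5 of the 7 (71.4%) both SNP libraries lay on the same side of both controls, a separation seen in 64% of all genes tested. MT2A is among the 5 and passed the filter only through the control libraries, where it is high, so nothing is read from these counts. Without control b, or with the RPKM-derived totals, SLC30A1 alone was called, and without SNP b there were 3 calls.

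**Figure D3:**
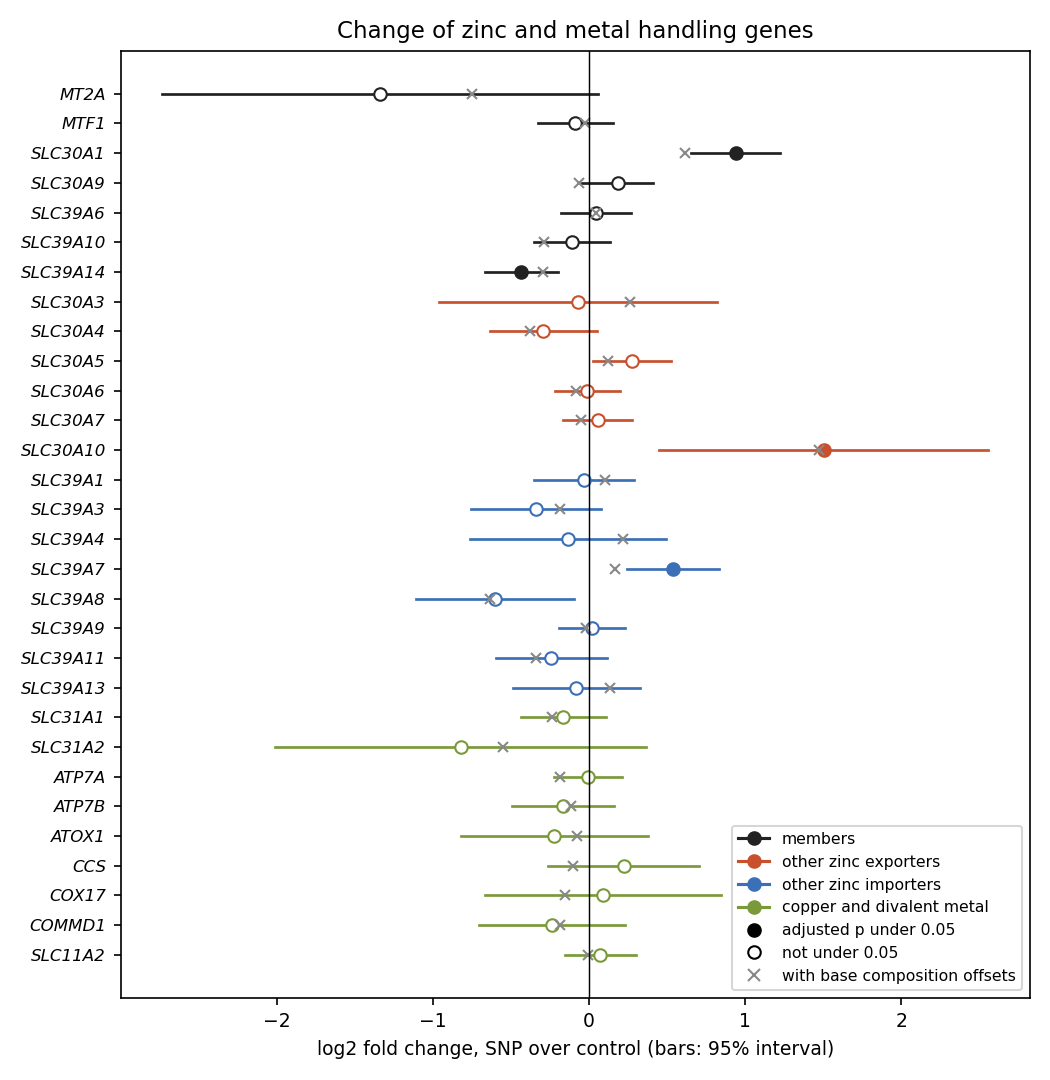
Log2 fold change of SNP over control (x axis, with 95% intervals) from the edgeR fit for the 7 tested members and the 23 tested genes of the other lists; filled points have an adjusted p under 0.05, colours mark the lists, and crosses give the value with offsets on length, GC and guanine excess. SLC30A1 is above 0 with and without offsets (0.62 and 0.94), SLC39A14 below 0 (-0.30 and -0.43), and SLC39A7 goes from 0.54 to 0.17 with them.

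Levels per length, from the deposited TPM values, placed all 6 of the MTF1 and transporter genes above the metallothioneins, with the importer SLC39A6 first. In control the order was SLC39A6 at 148.3 ± 8.29 TPM, SLC30A9 at 100.6 ± 1.71, SLC39A14 at 65.6 ± 3.77, SLC39A10 at 53.9 ± 6.56, MTF1 at 44.2 ± 0.273 and SLC30A1 at 27.7 ± 3.33 TPM (SD, n = 2 each). None of these neighbours overlapped in the control libraries. MT2A followed at 5.92 ± 1.02 TPM and overlapped MT1X, whose libraries were at 7.86 and 1.03 TPM. For 90.7% or more of counted genes in each library, the deposited TPM implied the exonic length merged over transcripts. TPM is therefore understated where the transcripts present are shorter than that, as can hold for the metallothioneins.

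In SNP, SLC30A1 stood above MTF1 and overlapped an importer. SLC39A6 stayed first at 166.6 ± 5.13 TPM and SLC30A9 came next at 123.8 ± 13.4 TPM (SD, n = 2 each). SLC30A1 at 57.6 ± 5.61 TPM overlapped SLC39A10 at 54.2 ± 1.03, which overlapped SLC39A14 at 52.8 ± 1.89 TPM. MTF1 lay below them at 45.3 ± 1.67 TPM, and MT2A (2.55 ± 1.56 TPM) and MT1X (2.38 ± 0.127 TPM) overlapped each other. TPM values are relative to the sum within each library, so this order compares genes within a condition.

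**Figure D4:**
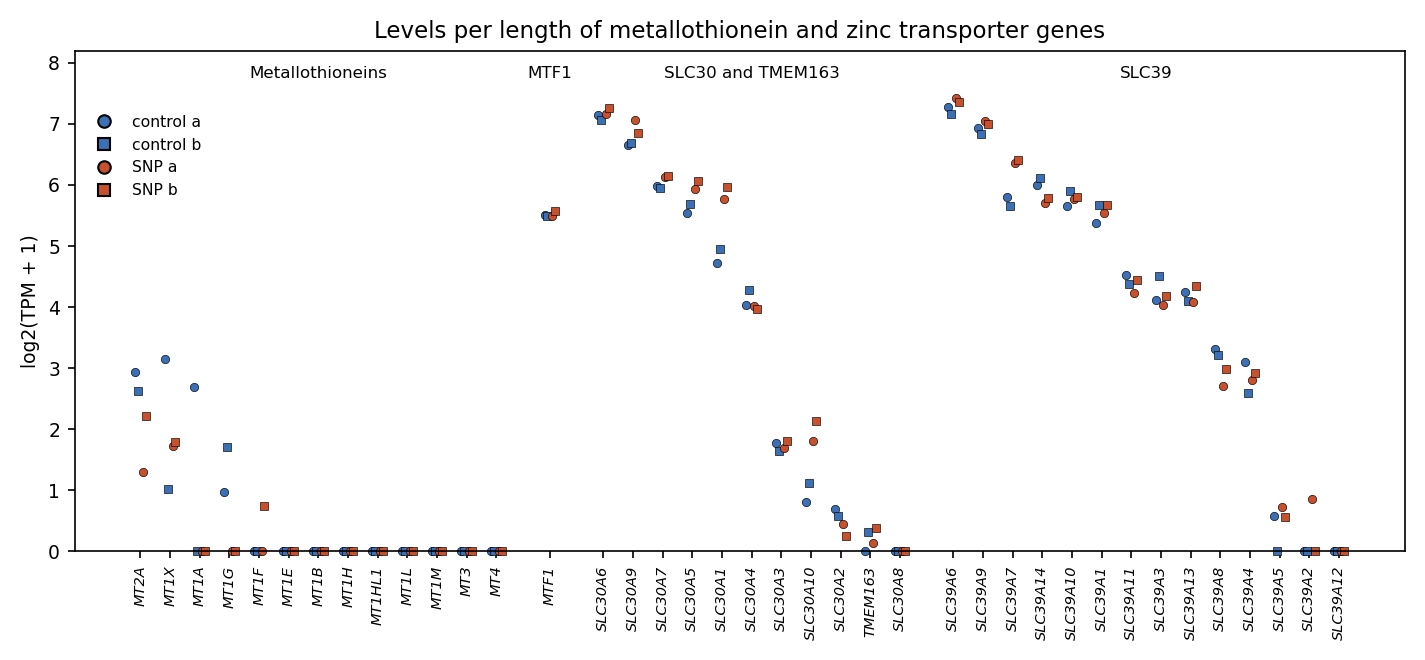
Deposited TPM in each of the 4 libraries, as log2(TPM + 1) on the y axis, for the 13 metallothionein genes, MTF1, the SLC30 genes with TMEM163, and the SLC39 genes, each family ordered by level; blue is control, orange SNP, circles are libraries a and squares libraries b. SLC39A6 is the highest SLC39 gene in all 4 libraries (142.4 to 170.2 TPM), SLC30A1 goes from 25.3 and 30.0 TPM in control to 53.6 and 61.6 TPM in SNP, and 8 of the 13 metallothionein genes lie at 0 throughout.

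Few other genes of zinc and metal handling passed the test. Of 38 further genes on the lists, 23 passed the count filter, 2 were called higher (SLC30A10 and SLC39A7) and 0 lower, beside 26.2% of all genes tested. SLC30A10 passed the filter only through the SNP libraries, where it is high, so nothing is read from this count. Their median log2 fold change was -0.069. By role, 1 of 6 tested exporters and 1 of 8 tested importers were called, with medians of 0.024 and -0.11, and 0 of 9 genes of copper and divalent metal handling, with a median of -0.16.

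SLC30A10, which carries manganese out of the cell, was very low in control and higher in the SNP libraries. The gene passed the count filter only through the SNP libraries, so nothing is read from its call or its separation. SLC30A10 was counted 6 and 8 times in the controls and 23 and 29 times with SNP, or 0.925 and 1.42 CPM against 2.90 and 3.76 CPM. The groups did not overlap, and the log2 fold change was 1.51 (SE 0.507, edgeR adjusted p = 0.0320). DESeq2 gave it no adjusted p, and leaving out any 1 library ended the call, with log2 fold changes from 1.21 to 1.83 and adjusted p of 0.227 without control a, 0.0634 without control b, 0.0923 without SNP a and 0.218 without SNP b.

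SLC39A7, which releases zinc from the endoplasmic reticulum and Golgi into the cytosol, had 33.5 and 29.7 CPM in control and 46.3 and 45.5 CPM in SNP. Both SNP libraries stood above both controls, with a log2 fold change of 0.54 (SE 0.142, edgeR adjusted p = 0.00749). Its transcript has more guanine over cytosine than 98.1% of tested genes, and with the composition offsets the log2 fold change was 0.17, with an adjusted p of 0.376. Without control b they were 0.46 and 0.116, and SLC39A7 shares 244 exonic bases with RXRB. No core was found in the 250 bases before the start of SLC30A10 or SLC39A7.

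Next to these stood SLC39A8, the importer closest to SLC39A14, and SLC30A5, an exporter into the early secretory pathway; both are given because their unadjusted p was under 0.05, a choice made after their values were seen. SLC39A8 had 12.5 and 11.4 CPM in control and 7.18 and 8.56 CPM in SNP, a log2 fold change of -0.60 (edgeR adjusted p = 0.0717). SLC30A5 had 56.3 and 61.4 CPM in control and 69.6 and 73.0 CPM in SNP, a log2 fold change of 0.28 (edgeR adjusted p = 0.0922). With the composition offsets the log2 fold change was 0.12 for SLC30A5 (edgeR adjusted p = 0.443) and -0.63 for SLC39A8 (edgeR adjusted p = 0.0645). SLC30A5 shares 532 exonic bases with AC010273.1, and SLC39A8 shares 197 with AC098487.1. The groups of each gene did not overlap, and neither passed the threshold. The other 19 tested list genes had log2 fold changes between -0.821 and 0.223 and adjusted p of 0.208 or more.

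Some of these genes were as abundant as the 10 genes above. SLC30A6, an exporter into the secretory pathway, averaged 142.3 TPM over the 4 libraries, SLC39A9 123.0 TPM, and the copper-exporting ATPase ATP7A 127.1 TPM. SLC30A7 (65.6 TPM), SLC30A5 (55.5), SLC39A7 (67.3), SLC11A2 (51.0), SLC39A1 (46.5) and the copper importer SLC31A1 (45.8 TPM) came next, and SLC39A1 shares 2341 exonic bases with AL358472.7 and CREB3L4. SLC30A4, SLC39A3, SLC39A4, SLC39A8, SLC39A11, SLC39A13, ATP7B, ATOX1, CCS, COX17 and COMMD1 averaged between 6.30 and 23.4 TPM.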

How the data were processed

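The authors deposited 1 gene table for each of the 4 libraries, with read counts, TPM and RPKM per gene. Per the submitters' processing notes the genome build is GRCh38, and the aligner and counting program are not given in the sources used here. The deposited counts were tested, the deposited TPM values gave levels per length, and the deposited RPKM values gave the library totals of 1 alternative, added after seeing the data.

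Counts of the 2 control and 2 SNP libraries were fitted with edgeR 4.0.16 (R 4.3.3; TMM, filterByExpr with a minimum count of 10 and total of 15, quasi-likelihood test), with p-values adjusted by the Benjamini-Hochberg method over all 14759 genes tested and a threshold of 0.05. CPM values use the TMM factors. Gene models come from GENCODE 29, in which 57980 of the 58243 identifiers were found, and promoters from RefSeq. The alternatives were other filters and scalings, DESeq2 1.42.0, limma-voom (limma 3.58.1), a replicate block, offsets on transcript length, GC and guanine minus cytosine (lowess span 0.5), a threshold of 0.01, and leaving out each library. On simulated data with 200 genes changed 2-fold, the fit called 89.2% of the 195 changed genes it tested, and 3.87% of its calls were wrong. With a trend on guanine minus cytosine added to the simulation (0.3 log2 units per SD), 91.7% of its 2156 calls were wrong without offsets and 16.7% of 198 with them, and with no gene changed it made 1733 calls without offsets and 0 with them. The simulation gave every gene the same spread, a biological coefficient of variation of 0.087, and drew the libraries independently. Its trend was set on a measure that the offsets also use, so their gain there was built in. These rates are not error rates of the real calls. The named genes are all 10 members, and from the other zinc and metal lists the genes called or averaging at least 5 TPM. The members and lists were chosen with earlier results of these data known. One list of cell type markers is not reported here.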

Additional observations from a re-analysis of the deposited data

How the results depend on the processing

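Over all genes tested, 3861 were called, 2415 of them also by DESeq2 (1272 higher, 1143 lower), 2224 at a threshold of 0.01, and between 2447 and 4144 when 1 library was left out, where the lone library of a group is assumed to vary like the other group. Of the 10 genes, 2 were called, 1 with totals from the RPKM values, and between 1 and 3 with a library left out. Of the other zinc and metal genes, 2 were called. SLC39A7 alone was called with a mean of at least 50 counts, with DESeq2 and at a threshold of 0.01. With the 50-count filter SLC30A10 was not tested, and DESeq2 gave it no adjusted p. With the composition offsets SLC30A10 alone was called. The number fell to 0 with the offsets and the replicate block together, and it also fell with any 1 library left out. Log2 fold changes near 0 changed sign: SLC30A9 was -0.063 with the offsets and -0.065 with the offsets and the block, SLC39A6 ranged from -0.021 (without control b) to 0.12, with -0.019 without SNP a, and SLC39A10 from -0.22 to 0.0040 (without control b) when 1 library was left out. The cause was not tested. The letters a and b pair the libraries by title alone: across genes, library a minus library b in control correlated with the same difference in SNP at 0.0442. With the replicate block 4487 genes were called (2314 higher, 2173 lower), of which 3860 were among the 3861, and no call of the 10 genes or of the other lists changed. With the composition offsets 2925 genes were called, of which 1953 were among the 3861, and with the offsets and the block 2804, of which 1896 were. With 50 bases after the start included, MT2A held 8 cores, SLC30A1 2 and the second annotated start of SLC39A10 1. Of the values of the shown genes under alternatives, 154 of 172 kept their direction and their side of the threshold. This tally includes the threshold of 0.01, which reuses the main fit and cannot change a direction. Several other alternatives only rescale the libraries, and DESeq2 values without an adjusted p are left out. The tally is therefore not a measure of robustness. At these count totals 3 counts are 0.378 to 0.533 CPM, and metallothioneins below that could not be measured.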
